A study of Arabidopsis thaliana with 6 samples.

Results

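The 44 genes described here encode the chlorophyll-binding antenna proteins and the nuclear-encoded photosystem subunits of Arabidopsis thaliana, taken from a fixed list of locus identifiers out of 32833 genes counted in each library. They comprise 6 photosystem I antenna genes (LHCA1 to LHCA6), 15 photosystem II antenna genes (LHCB1 to LHCB7), 12 photosystem I subunit genes (PSA) and 11 photosystem II subunit genes (PSB). Whole seedlings of the line amiRNA-VQ1,10 were compared with wild type Col-0, the usual background strain, with 3 libraries per genotype. The line is labelled for an artificial microRNA (a small RNA engineered to reduce transcripts that match it) against VQ1 and VQ10, and VQ proteins are known as partners of WRKY transcription factors. All seedlings were 14 days old, grown in normoxia (21% O2) on MS medium with 1% sucrose under a light intensity of 150 µmol photons per m2 each second, with daily cycles of 16 h light and 8 h dark, and were harvested at zeitgeber time 4 h. Neither the promoter of the artificial microRNA nor the number of independent lines is given in the labels.

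Photosystems I and II are the pigment and protein complexes of the thylakoid membrane that convert light into electron flow. Chlorophyll a/b-binding proteins of the LHC family collect the light around each core, LHCA proteins at photosystem I and LHCB proteins at photosystem II. All of these genes lie in the nucleus and their products are imported into the chloroplast, where they join subunits made from the chloroplast genome. Their transcripts are among the most abundant of green leaves and are known to follow light, sugar and the circadian clock.

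Library totals summed over all genes lay between 926209 and 1177363 counts for amiRNA-VQ1,10 and between 1124134 and 1329817 counts for wild type. Levels are CPM, counts scaled to a common library total by TMM, and are not divided by gene length, since reads of 3′ RNA-seq come from the transcript end. The counts of a member in a library lay between 16 and 5883, and 32 of the 44 members averaged over 1000 CPM. Of the 50 genes with the highest mean CPM 25 were members. The targeted gene VQ1 (AT1G17147) had 0, 0 and 0 counts in amiRNA-VQ1,10, against 5, 1 and 2 in wild type, and VQ10 (AT1G78410) 0, 0 and 0 in amiRNA-VQ1,10, against 1, 0 and 0 in wild type, too few to check the label firmly.

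Near-identical copies set a limit on what counts per gene can show. The coding ends of the LHCB1 genes are printed because LHCB1 is the paralog group with the most members and holds the gene that differed most between the genotypes. The lines below give the last 60 coding bases of the 5 LHCB1 genes, stop codon included, 5′ to 3′ on the coding strand, from the RefSeq TAIR10.1 genome. Capitals mark the 9 positions at which at least 1 of the 5 genes differs. LHCB1.1 lies at chr1:10475089-10475148 (minus strand), LHCB1.2 at chr1:10472443-10472502 (minus), LHCB1.3 at chr1:10478815-10478874 (plus), LHCB1.4 at chr2:14525559-14525618 (plus) and LHCB1.5 at chr2:14522716-14522775 (minus).
LHCB1.1: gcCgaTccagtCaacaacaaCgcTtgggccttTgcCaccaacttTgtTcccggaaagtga
LHCB1.2: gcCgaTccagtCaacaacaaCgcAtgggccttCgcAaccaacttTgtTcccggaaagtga
LHCB1.3: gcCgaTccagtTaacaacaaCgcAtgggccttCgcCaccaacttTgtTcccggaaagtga
LHCB1.4: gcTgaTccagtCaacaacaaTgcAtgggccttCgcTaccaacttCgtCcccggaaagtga
LHCB1.5: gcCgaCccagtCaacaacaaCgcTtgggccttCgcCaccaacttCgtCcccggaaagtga

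Over the whole coding sequence LHCB1.1, LHCB1.2 and LHCB1.3, which are neighbours on chromosome 1, were 95.6% to 96.4% identical to each other. LHCB1.4 was 91.4% identical to LHCB1.5, its neighbour on chromosome 2, and 86.8% to 88.2% identical to the copies on chromosome 1. LHCB2.1 and LHCB2.2, at 96.6%, were the most alike of the pairs compared. The annotated transcript ends, where the reads of this assay are expected, were far less alike: over the last 300 bases the LHCB1 pairs reached 41.9% to 55.6%. Of the 251 windows of 50 bases in that stretch, LHCB1.2 had 16 that recur elsewhere in the genome, in LHCB1.1 or LHCB1.3, and LHCB2.2 had 45 that recur in LHCB2.1. LHCA2 had 27 that recur outside annotated genes, and the other members, LHCB1.4 included, had 0. No source used here gives the read length, and counts of LHCA2, LHCB1.2 and LHCB2.2 are the more uncertain for these recurring windows. In the RefSeq annotation 16 of the 44 members overlap a gene on the opposite strand, among them LHCB1.3, LHCB1.5, LHCB2.3 and PSAN, while LHCB1.1, LHCB1.4, PSAF, LHCB4.1 and PSBW overlap none. The strand setting of the counting is not given, so reads in those overlaps cannot be told apart.

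The antenna and photosystem genes as a group stood slightly higher in amiRNA-VQ1,10 than in wild type, and no single member passed the test. Summed over the 44 genes, the level was 91900, 84100 and 88320 CPM in amiRNA-VQ1,10, against 82280, 84420 and 82520 CPM in wild type. The amiRNA-VQ1,10 replicate 2 library lay within the wild type values and the other amiRNA-VQ1,10 libraries above them, so the genotypes overlapped. The mean was 88110 ± 3907 CPM in amiRNA-VQ1,10 and 83070 ± 1171 CPM in wild type (SD, n = 3 each), a ratio of 1.06. This is 8.81% of the scaled total in amiRNA-VQ1,10 and 8.31% in wild type. The ratio was 1.04 without amiRNA-VQ1,10 replicate 1 and 1.085 without replicate 2.

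All 44 members passed the low-count filter, and 0 had an adjusted p under 0.05 (edgeR quasi-likelihood test, Benjamini-Hochberg over 12701 genes), where 0.102% of all tested genes did (0.0236% higher and 0.0787% lower in amiRNA-VQ1,10). Of the members 39 had a log2 fold change (amiRNA-VQ1,10 over wild type) above 0, with a median of 0.07 and quartiles of 0.04 and 0.11. Over all tested genes 50.7% were above 0, with a median of 0.003. The number above 0 was 33 when amiRNA-VQ1,10 replicate 3 or wild type replicate 1 was left out and was 35 when library totals alone set the scale. At an unadjusted p under 0.05 there were 7 members, all above 0, where 6.02% of all tested genes passed it (3.04% higher and 2.98% lower in amiRNA-VQ1,10). Of the 24 other tested genes at or above the members' median CPM, 4 passed it, all above 0, among them the photosynthesis genes FD2 and RBCS1A. DESeq2 and limma-voom also called 0 members, while 1 member, LHCB1.4, was called with no filter on low counts, with the replicate block, and without amiRNA-VQ1,10 replicate 2 or replicate 3. The p-values measure the spread between libraries that the design text of the series calls independent biological replicates.

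In 11 members the lowest amiRNA-VQ1,10 library lay above the highest wild type library, and in 0 the reverse was seen. Over all tested genes 5.28% had amiRNA-VQ1,10 wholly above and 5.1% wholly below, together 10.4%. Of the 24 other tested genes at or above the members' median CPM, 4 were wholly above, again with FD2 and RBCS1A among them, and 0 wholly below. The 11 were LHCA2, LHCB1.1, LHCB1.4, LHCB1.5, LHCB3, LHCB4.2, PSAF, PSAH2, PSAO, PSBO1 and PSBR. Errors were small beside those of all tested genes, with a median SE of 0.07 over the members and of 0.21 over all tested genes, both on the log2 scale. Other abundant genes were alike in this, with a median SE of 0.06 over the 24 at or above the members' median CPM. Apart from LHCB1.4, LHCB4.3 and LHCB7, the 95% intervals reached no lower than -0.26 (LHCA6) and no higher than 0.37 (LHCB2.3).

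**Figure D1:**
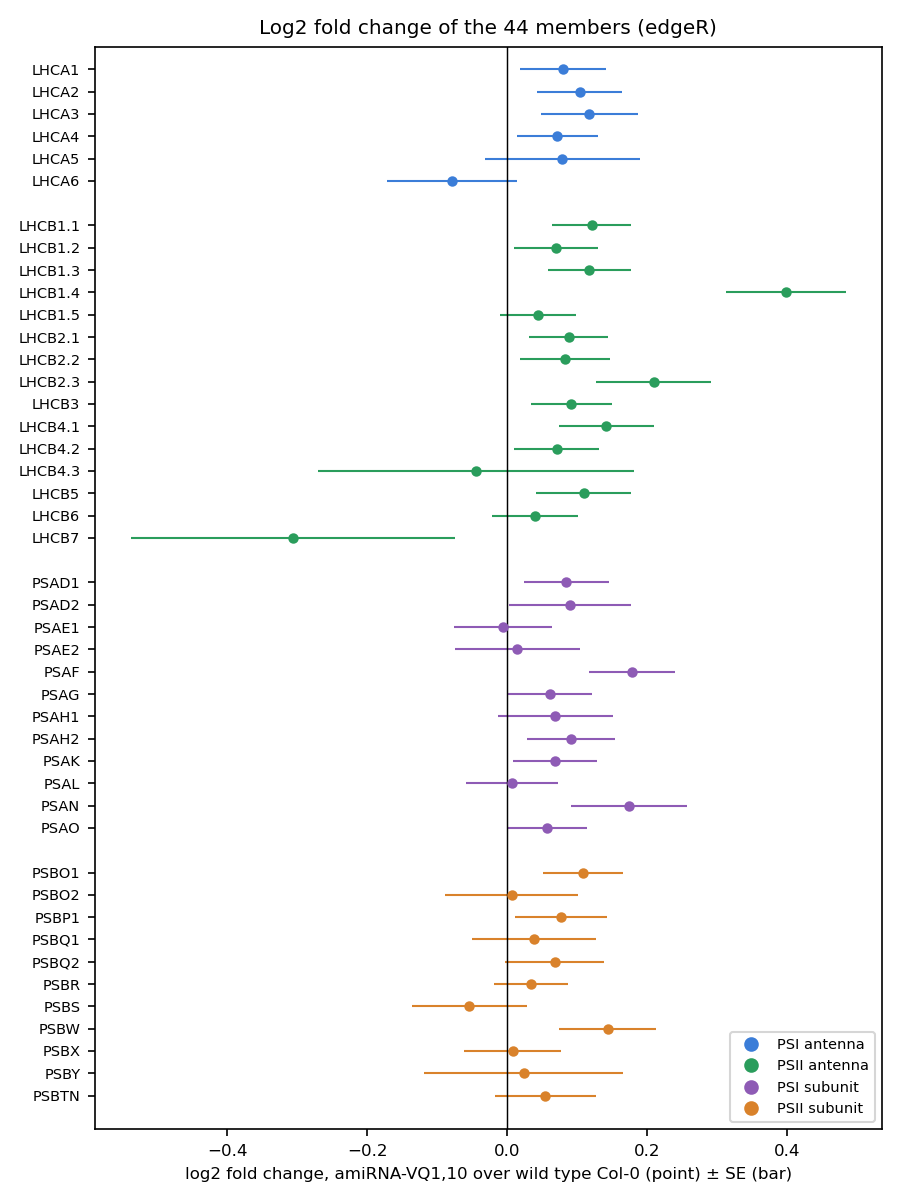
Log2 fold change of each member, amiRNA-VQ1,10 over wild type Col-0 (horizontal axis, edgeR), with bars of 1 SE, grouped by class from top to bottom. Most points sit just right of 0, with LHCB1.4 at 0.40 the highest and LHCB7 at -0.31 the lowest.

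The libraries of a genotype differed across the members as a whole. Averaged over all 44 genes, the log2 level relative to each gene's mean was 0.07 in amiRNA-VQ1,10 replicate 1, -0.05 in replicate 2 and 0.08 in replicate 3. The same averages were -0.07, 0.002 and -0.04 in wild type replicates 1, 2 and 3. Replicate 2 was the lowest of the amiRNA-VQ1,10 libraries in 32 members, and replicate 1 was the highest of all 6 libraries in 31. The replicate 2 library of amiRNA-VQ1,10 also had the lowest total count and the highest share of reads with several alignments (5.45%, against 4.40% to 5.15% in the other libraries), and the part of either in the result was not tested.

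**Figure D2:**
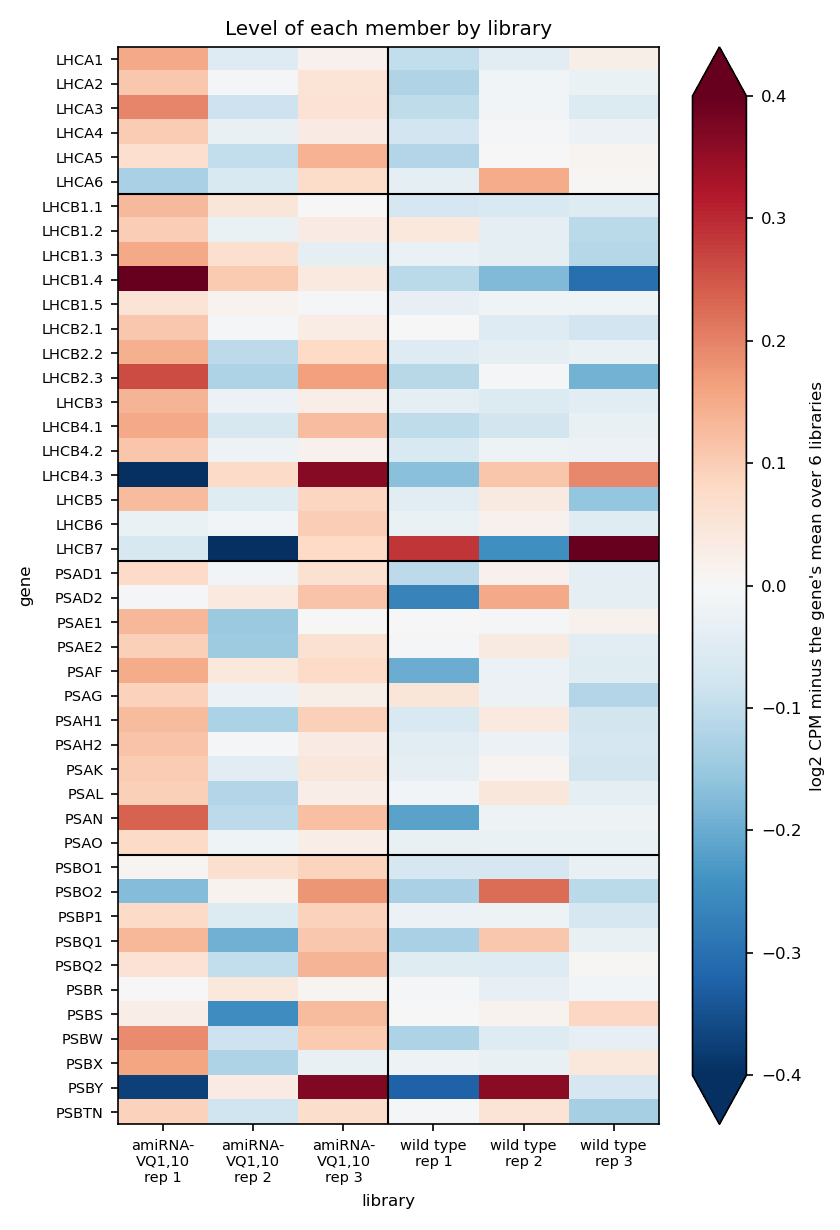
Log2 CPM of each member (rows) in each library (columns) minus the gene's mean over the 6 libraries, with red above and blue below 0. The colour scale ends at ±0.4, which 3 members exceed. amiRNA-VQ1,10 replicate 1 is above 0 in 36 members and replicate 3 in 41, while replicate 2 is above 0 in 11.

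The shares of the 4 classes overlapped between the genotypes. The photosystem II antenna held 40.7% ± 0.53 of the members' counts in amiRNA-VQ1,10 and 40.3% ± 0.64 in wild type. The photosystem I subunits held 26.0% ± 0.11 in amiRNA-VQ1,10 and 26.1% ± 0.25 in wild type, and the photosystem II subunits 20.4% ± 0.64 in amiRNA-VQ1,10 and 20.8% ± 0.19 in wild type. The photosystem I antenna held 12.8% ± 0.18 in amiRNA-VQ1,10 and 12.8% ± 0.34 in wild type (SD, n = 3 each). Median log2 fold changes were 0.09 for the photosystem II antenna, 0.08 for the photosystem I antenna, 0.07 for the photosystem I subunits and 0.04 for the photosystem II subunits. With single libraries left out, the photosystem II antenna median stayed between 0.064 and 0.116, and the other class medians moved by over 1.5 times. The photosystem II subunits stood at 0.10 without amiRNA-VQ1,10 replicate 2 and at 0.098 without wild type replicate 2, and the photosystem I subunits at 0.034 without amiRNA-VQ1,10 replicate 1. The photosystem I antenna stood at 0.042 without amiRNA-VQ1,10 replicate 1, at 0.128 without its replicate 2 and at 0.048 without wild type replicate 1. The order of the classes turned with them: without amiRNA-VQ1,10 replicate 1 the photosystem II subunits, at 0.058, stood above both photosystem I classes. The summed photosystem II antenna was the class whose libraries did not overlap, at 37800, 34420 and 35450 CPM in amiRNA-VQ1,10, against 33730, 33710 and 32880 CPM in wild type. The photosystem I antenna (11980, 10670 and 11290 CPM in amiRNA-VQ1,10, against 10270, 10880 and 10860 CPM in wild type) overlapped through amiRNA-VQ1,10 replicate 2. The photosystem I and II subunits overlapped through the same library. Ratios of the class means were 1.07 for the photosystem II antenna, 1.06 for the photosystem I antenna, 1.06 for the photosystem I subunits and 1.04 for the photosystem II subunits, and whether they differ between classes was not tested.

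**Figure D3:**
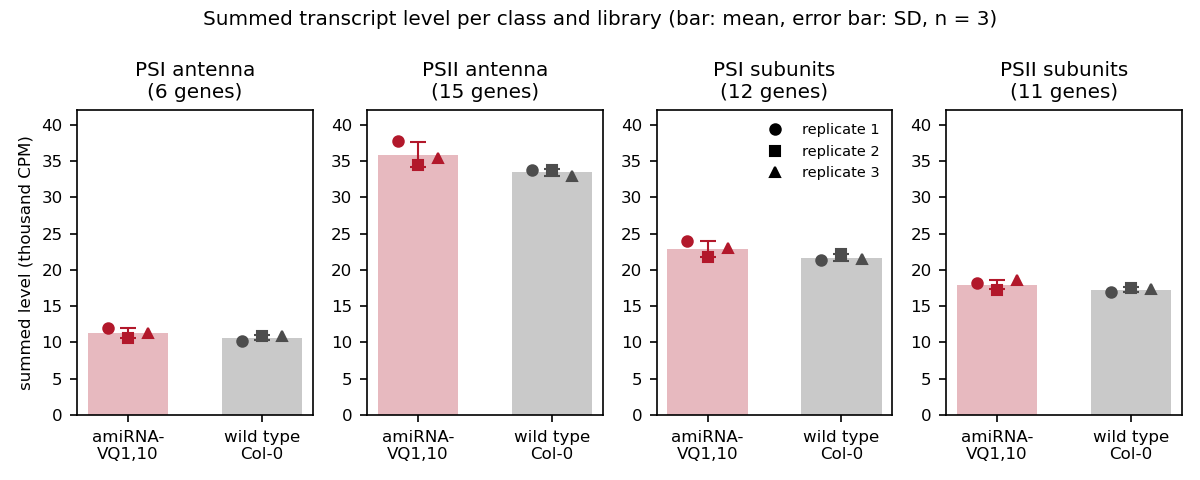
Summed level of each class in CPM divided by 1000, from 0, with bars at the mean, error bars of 1 SD (n = 3) and a symbol for each library, amiRNA-VQ1,10 left of wild type Col-0. The photosystem II antenna averaged 35890 CPM in amiRNA-VQ1,10 and 33440 CPM in wild type, without overlap, while the libraries of the other classes overlap between the genotypes.

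The major trimeric antenna of photosystem II is built from LHCB1, LHCB2 and LHCB3 proteins, and the member that differed most was an LHCB1 gene. LHCB1.4 (LHB1B1 in RefSeq, AT2G34430, 1 exon at chr2:14524607-14525918, plus strand) had 1579, 1251 and 1195 CPM in amiRNA-VQ1,10, against 1080, 1029 and 944 CPM in wild type. Every amiRNA-VQ1,10 library was above every wild type library, and amiRNA-VQ1,10 replicate 1 was the highest. The log2 fold change was 0.40 ± 0.09 (SE), and its edgeR adjusted p of 0.0761 was the smallest among the members. It was past the threshold without amiRNA-VQ1,10 replicate 2 (0.45, adjusted p = 0.0311) or replicate 3 (0.48, adjusted p = 0.00912), and stood at 0.27 without amiRNA-VQ1,10 replicate 1 (adjusted p = 0.324). It passed too with no filter on low counts (0.39, adjusted p = 1e-04) and in the fit blocked on replicate number (0.39, adjusted p = 0.0385), within a range of 1e-04 to 0.324 over the alternatives.

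LHCB1.5 (AT2G34420) starts 1038 bases from LHCB1.4 on the opposite strand, and had 4236, 4110 and 4062 CPM in amiRNA-VQ1,10, against 3982, 4028 and 4029 CPM in wild type. These ranges did not overlap either, yet the log2 fold change was 0.04 ± 0.05 (SE). LHCB1.3 (AT1G29930) had 4395, 4138 and 3855 CPM in amiRNA-VQ1,10, against 3888, 3862 and 3661 CPM in wild type, with 1 amiRNA-VQ1,10 library inside the wild type range. Counts of LHCB1.1 (AT1G29920) stood at 3840, 3624 and 3517 CPM in amiRNA-VQ1,10, against 3347, 3364 and 3383 CPM in wild type, without overlap. Its log2 fold change of 0.12 ± 0.06 (SE) did not pass (edgeR adjusted p = 0.81). LHCB1.2 (AT1G29910) had 3469, 3181 and 3315 CPM in amiRNA-VQ1,10, against 3333, 3150 and 3008 CPM in wild type, with overlap. With the 5 genes summed to 1 entry, the log2 fold change of LHCB1 was 0.11 ± 0.05 (SE, edgeR adjusted p = 0.78).

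Within the LHCB1 counts LHCB1.4 made up 9.01%, 7.67% and 7.50% in amiRNA-VQ1,10, against 6.91%, 6.67% and 6.28% in wild type. The means were 8.06% ± 0.83 in amiRNA-VQ1,10 and 6.62% ± 0.32 in wild type (SD, n = 3 each), without overlap. A two-sided exact permutation test gave p = 0.1, the smallest that 3 against 3 libraries allow, and 0.884 after Benjamini-Hochberg adjustment over the 21 shares computed in 8 paralog groups. It was the 1 share of the 21 whose ranges did not overlap. In the groups of 2 genes each share mirrors the other, so the 21 are not separate results. Over all tested genes, the CPM ranges of 10.4% did not overlap, a rate for single genes and not for shares. LHCB1.5 made up 24.96% ± 0.68 in amiRNA-VQ1,10 and 26.1% ± 0.67 in wild type.

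**Figure D4:**
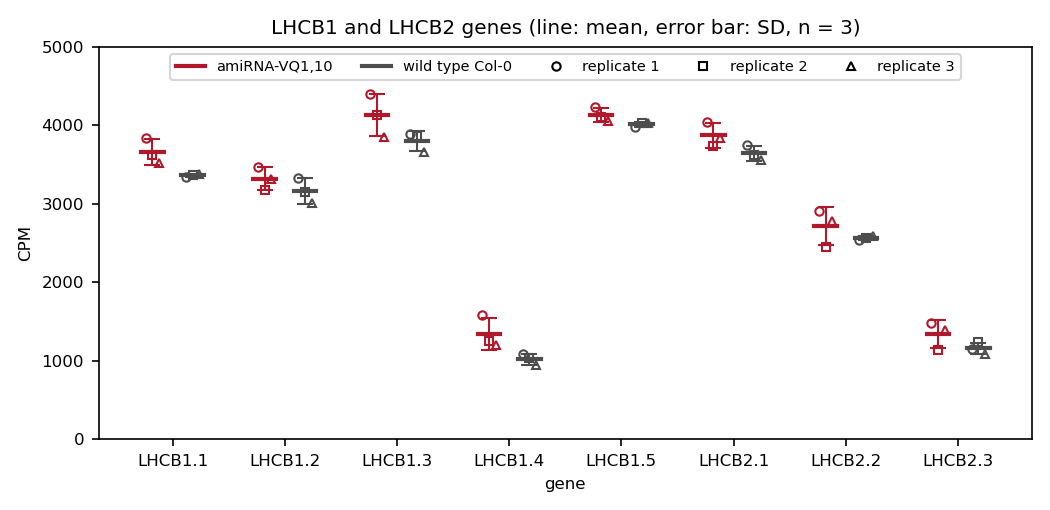
CPM of the LHCB1 and LHCB2 genes, from 0, with a line at the mean, error bars of 1 SD (n = 3) and a symbol for each library, amiRNA-VQ1,10 left of wild type Col-0 for each gene. LHCB1.4 is near 1342 CPM in amiRNA-VQ1,10 and 1018 CPM in wild type, while the genotypes lie closer together, relative to their level, in the other genes.

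To show the sequence beside these neighbours, the 250 bases before each annotated gene start are printed, from RefSeq TAIR10.1 and 5′ to 3′ on the strand of the gene. LHCB1.4 is at chr2:14524357-14524606 (plus strand) and LHCB1.5 at chr2:14523569-14523818 (minus strand). Capitals mark matches, on either strand, to 6 motifs: the G-box CACGTG, the I-box GATAAG, the evening element AAAATATCT, the CCA1-binding element AAAAATCT, CCAATC and the TATA box TATAAA.
LHCB1.4: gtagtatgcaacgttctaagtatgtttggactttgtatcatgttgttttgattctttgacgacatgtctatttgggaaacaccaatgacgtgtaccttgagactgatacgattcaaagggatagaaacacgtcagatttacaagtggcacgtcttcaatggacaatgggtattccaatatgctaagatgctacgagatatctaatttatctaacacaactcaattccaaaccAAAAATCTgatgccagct
LHCB1.5: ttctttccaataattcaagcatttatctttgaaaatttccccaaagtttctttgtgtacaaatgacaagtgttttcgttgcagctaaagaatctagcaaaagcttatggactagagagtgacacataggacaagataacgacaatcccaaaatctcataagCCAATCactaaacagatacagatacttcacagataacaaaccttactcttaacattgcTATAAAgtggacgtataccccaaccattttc

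The LHCB1.4 window holds 1 match, the CCA1-binding element, and the LHCB1.5 window holds CCAATC and a TATA box. Among windows of this length before all 44 members, CCAATC was found in 11 (25%, 10.2% of 27443 nuclear protein-coding genes), 7 of them in the photosystem II antenna. The G-box was found in 10 (22.7%, 6.49% of all), the I-box in 9 (20.5%, 12.3% of all) and the CCA1-binding element in 5 (11.4%, 6.69% of all). The evening element was found in 1 (2.27%, 2.36% of all) and the TATA box in 19 (43.2%, 47.3% of all). None of these motifs lies within another, so their matches were counted separately. Matches are a description of these letters only.

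LHCB2 proteins are known for the phosphorylation that moves antenna between the photosystems. LHCB2.3 (AT3G27690) had 1485, 1139 and 1389 CPM in amiRNA-VQ1,10, against 1149, 1234 and 1088 CPM in wild type. Its amiRNA-VQ1,10 replicate 2 was inside the wild type range, and the log2 fold change was 0.21 ± 0.08 (SE, edgeR adjusted p = 0.653). LHCB2.1 (AT2G05100) had 4046, 3736 and 3838 CPM in amiRNA-VQ1,10, against 3750, 3625 and 3561 CPM in wild type. LHCB2.2 (AT2G05070) had 2912, 2453 and 2785 CPM in amiRNA-VQ1,10, against 2543, 2567 and 2589 CPM in wild type. Both overlapped between genotypes. As 1 summed entry LHCB2 had a log2 fold change of 0.11 ± 0.06 (SE, edgeR adjusted p = 0.857). The single LHCB3 gene averaged 3808 ± 217 CPM in amiRNA-VQ1,10 and 3572 ± 23.1 CPM in wild type (SD, n = 3 each).

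LHCB4, LHCB5 and LHCB6, known as CP29, CP26 and CP24, are the monomeric antenna that links the trimers to the photosystem II core. LHCB4.1 (AT5G01530) had 1613, 1389 and 1580 CPM in amiRNA-VQ1,10, against 1353, 1380 and 1422 CPM in wild type. Replicate 2 of amiRNA-VQ1,10 lay inside the wild type range, and the log2 fold change of 0.14 ± 0.07 (SE) did not pass (edgeR adjusted p = 0.821). LHCB4.2 (AT3G08940) had 2364, 2161 and 2216 CPM in amiRNA-VQ1,10, against 2099, 2160 and 2157 CPM in wild type, apart by 1 CPM. LHCB4.1, LHCB4.2 and LHCB4.3 made up 40.1%, 59.1% and 0.736% of the LHCB4 counts in amiRNA-VQ1,10, and 39.0%, 60.2% and 0.808% in wild type. LHCB5 (AT4G10340) had 1969, 1745 and 1917 CPM in amiRNA-VQ1,10, against 1748, 1851 and 1620 CPM in wild type, and LHCB6 had a log2 fold change of 0.04 ± 0.06 (SE).

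The 2 members under 100 CPM were both of this class and both below 0. LHCB7 (AT1G76570) had 23.9, 17.3 and 26.4 CPM in amiRNA-VQ1,10, against 30.5, 21.0 and 34.4 CPM in wild type, a log2 fold change of -0.31 ± 0.23 (SE, edgeR adjusted p = 0.921). LHCB4.3 (AT2G40100) had 18.4, 29.2 and 35.8 CPM in amiRNA-VQ1,10, against 24.6, 30.0 and 31.7 CPM in wild type, a log2 fold change of -0.04 ± 0.23 (SE). Both were counted at 16 to 42 per library, and their SE of 0.23 was the widest among the members.

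LHCA1 to LHCA4 form the antenna belt of photosystem I, and LHCA5 and LHCA6 are known to link photosystem I to the NDH complex. LHCA2 (AT3G61470) had 2550, 2354 and 2461 CPM in amiRNA-VQ1,10, against 2180, 2351 and 2324 CPM in wild type. The ranges were separate by a few CPM only, with a log2 fold change of 0.10 ± 0.06 (SE, edgeR adjusted p = 0.86). LHCA3 (AT1G61520) had 2142, 1766 and 1948 CPM in amiRNA-VQ1,10, against 1743, 1856 and 1799 CPM in wild type, with overlap. The 2 most abundant of the class also overlapped. LHCA4 (AT3G47470) had 3533, 3229 and 3373 CPM in amiRNA-VQ1,10, against 3122, 3278 and 3244 CPM in wild type. LHCA1 (AT3G54890) had 3336, 2902 and 3044 CPM in amiRNA-VQ1,10, against 2809, 2922 and 3053 CPM in wild type. LHCA5 and LHCA6 were far less abundant. LHCA5 (AT1G45474), the lowest of the class, had 153, 136 and 161 CPM in amiRNA-VQ1,10, against 135, 146 and 147 CPM in wild type. LHCA6 (AT1G19150) was the 1 member of the class below 0, with 267, 280 and 307 CPM in amiRNA-VQ1,10, against 285, 324 and 293 CPM in wild type (log2 fold change -0.08 ± 0.09, SE).

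Among the photosystem I subunits PSAF, which docks plastocyanin on the lumen side, had the smallest p. PSAF (AT1G31330) had 3640, 3383 and 3466 CPM in amiRNA-VQ1,10, against 2857, 3232 and 3177 CPM in wild type. The ranges were separate, wild type replicate 1 was the lowest, and the log2 fold change of 0.18 ± 0.06 (SE) did not pass (edgeR adjusted p = 0.506). It lay between 0.12 and 0.21 over the alternatives run. PSAN (AT5G64040), a lumen protein of the same side, had 1093, 862 and 1008 CPM in amiRNA-VQ1,10, against 800, 913 and 914 CPM in wild type, with overlap (log2 fold change 0.18 ± 0.08, SE). PSAD and PSAE form the stromal ridge where ferredoxin docks. PSAD1 (AT4G02770) had 2470, 2327 and 2444 CPM in amiRNA-VQ1,10, against 2177, 2373 and 2279 CPM in wild type. PSAD2 (AT1G03130) had 742, 765 and 806 CPM in amiRNA-VQ1,10, against 618, 827 and 727 CPM in wild type. The wild type libraries of PSAD2 spread more widely and enclosed all of amiRNA-VQ1,10. PSAE1 (AT4G28750), the member nearest to 0, had 1560, 1283 and 1426 CPM in amiRNA-VQ1,10, against 1426, 1419 and 1440 CPM in wild type (log2 fold change -0.005 ± 0.07, SE). PSAE2 (AT2G20260), the lowest of the class, had 347, 294 and 339 CPM in amiRNA-VQ1,10, against 324, 333 and 315 CPM in wild type.

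PSAH, PSAL and PSAO lie on the side of photosystem I where mobile antenna can bind, and PSAG and PSAK flank its antenna. PSAH2 (AT1G52230) had 1792, 1646 and 1696 CPM in amiRNA-VQ1,10, against 1607, 1628 and 1582 CPM in wild type, without overlap, and a log2 fold change of 0.09 ± 0.06 (SE). PSAH1 (AT3G16140) had 631, 529 and 617 CPM in amiRNA-VQ1,10, against 554, 594 and 549 CPM in wild type, with overlap. PSAG (AT1G55670), the most abundant of the class, had 3621, 3343 and 3450 CPM in amiRNA-VQ1,10, against 3514, 3343 and 3129 CPM in wild type, also with overlap. The log2 fold changes of PSAK, PSAL and PSAO were 0.07, 0.007 and 0.06.

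PSBO, PSBP and PSBQ make up the extrinsic part of the oxygen-evolving complex. PSBO1 (AT5G66570) had 3117, 3237 and 3292 CPM in amiRNA-VQ1,10, against 2956, 2956 and 3030 CPM in wild type. The ranges were separate, with a log2 fold change of 0.11 ± 0.06 (SE, edgeR adjusted p = 0.853). PSBO2 (AT3G50820) had 618, 704 and 789 CPM in amiRNA-VQ1,10, against 637, 814 and 647 CPM in wild type, with overlap. PSBO1 made up 82.1% ± 1.39 of the PSBO counts in amiRNA-VQ1,10 and 81.0% ± 2.26 in wild type, PSBQ2 65.4% ± 1.33 of the PSBQ counts in amiRNA-VQ1,10 and 65.0% ± 2.04 in wild type (SD, n = 3 each). PSBQ1 (AT4G21280) had 658, 525 and 646 CPM in amiRNA-VQ1,10, against 548, 647 and 587 CPM in wild type. PSBQ2 (AT4G05180) had 1170, 1049 and 1236 CPM in amiRNA-VQ1,10, against 1087, 1085 and 1128 CPM in wild type. Both overlapped, and PSBP1 had a log2 fold change of 0.08.

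PSBR (AT1G79040), a small protein beside the oxygen-evolving complex, had the highest level of the class and of all members. It had 4503, 4641 and 4548 CPM in amiRNA-VQ1,10, against 4486, 4404 and 4478 CPM in wild type, separate by less than the spread within either genotype (log2 fold change 0.03 ± 0.05, SE). PSBW (AT2G30570), which stabilises the photosystem II supercomplex, had 2151, 1783 and 2030 CPM in amiRNA-VQ1,10, against 1732, 1822 and 1845 CPM in wild type. Replicate 2 of amiRNA-VQ1,10 lay inside the wild type range, and the log2 fold change was 0.14 ± 0.07 (SE, edgeR adjusted p = 0.817). PSBS (AT1G44575), the sensor of lumen acidity in heat dissipation, had 851, 703 and 912 CPM in amiRNA-VQ1,10, against 836, 844 and 885 CPM in wild type (log2 fold change -0.05 ± 0.08, SE). The small subunits PSBX, PSBY and PSBTN had log2 fold changes of 0.008, 0.02 and 0.06.

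Of the pathway genes that are no members, 0 passed the threshold in each list. Of 14 nuclear genes of electron transport and ATP synthase 9 were above 0 (median 0.03), led by the ferredoxin gene FD2 at 0.25 and the cytochrome b6f gene PETM at 0.23 (edgeR adjusted p = 0.48 and 0.542). Of 20 photosystem genes of the chloroplast genome 13 were tested, with 4 above and 9 below 0 (median -0.16). Their summed level was 7991 ± 457 CPM in amiRNA-VQ1,10 and 8053 ± 268 CPM in wild type (SD, n = 3 each). The smallest p there was that of psbD, which encodes the D2 core protein, at -0.78 (edgeR adjusted p = 0.343). It rested on 22 to 64 counts per library. The ratio of the summed levels of this list was 0.992. Those sums were mostly psaB, psbM and psaJ, at means of 2643, 2197 and 1359 CPM over the 6 libraries. Counts within the list were very uneven, with psaA at a mean of 2.79 CPM and psbA at 148 CPM. How well this assay counts chloroplast transcripts was not tested, which limits the median, the sums and the ratio.

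Of 10 genes for antenna import, phosphorylation and energy dissipation 4 were above 0 (median -0.02), and the smallest p belonged to the membrane insertase ALB3 at 0.20 and to CPSRP43, a chaperone of LHC proteins, at 0.16. Of 8 early light-induced and LHC-like genes 3 were above 0 (median -0.01), with ELIP1 at -0.29. Of 11 regulators of photosynthesis genes 4 were above 0 (median -0.06). Among these the activators GLK1 and GLK2 stood at -0.11 and -0.16, and CCA1, a clock factor known to bind an LHCB1 promoter, at -0.17. CGA1 stood at -0.26 and GNC at 0.09. The SE of these 5 genes was 0.12 to 0.28. All log2 fold changes of these 3 lists had an edgeR adjusted p of at least 0.844.

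Markers of green tissue moved with the members. All 8, among them the Rubisco small subunit genes, were above 0 (median 0.06, 0 past the threshold), and their summed level was 22100, 20620 and 22090 CPM in amiRNA-VQ1,10, against 20430, 20740 and 20350 CPM in wild type. As with the members, amiRNA-VQ1,10 replicate 2 lay inside the wild type range and the other amiRNA-VQ1,10 libraries above it. Of 10 root markers 8 were tested and 3 were above 0 (median -0.10), with summed levels of 1488, 1780 and 1411 CPM in amiRNA-VQ1,10, against 1619, 1412 and 1388 CPM in wild type. Their median lay below 0 and the ratio of their sums, 1.06, above no change, the sum being mostly PYK10, which was highest in amiRNA-VQ1,10 replicate 2. CASP2 and NRT2.1, at 5.50 to 8.24 and 0 to 3.41 CPM, were too low for the count filter, though CASP2 had 6 to 11 counts in each library. The other root markers lay higher, and the label names whole seedlings. In whole seedlings, more green cells and more of these transcripts per cell cannot be told apart, and the part of tissue composition was not tested.

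A comparison by level gave a like picture, but it was not free of photosynthesis genes. The 24 other tested genes at or above the members' median of 1820 CPM had 18 log2 fold changes above 0 and 6 below. Their median was 0.05, with 0 past the threshold. Among those above 0 were RBCS1A, RBCS2B, RBCS3B, GAPA1, CA1, PETE2, FD2, psaB and psbM, all from the lists above. The values therefore do not show whether abundant genes outside photosynthesis stood higher too. These genes and the members share the 6 libraries and their scaling.

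**Figure D5:**
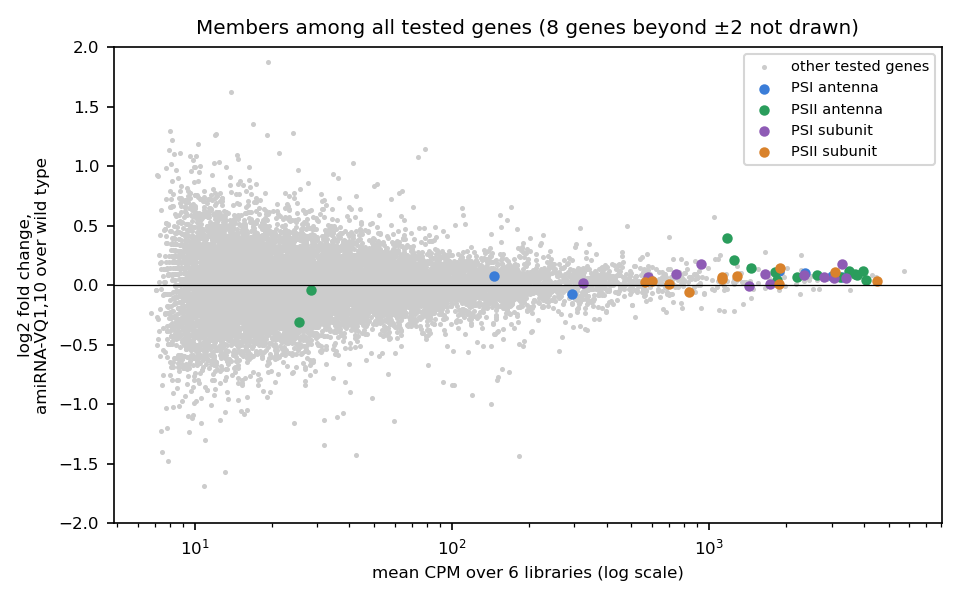
Log2 fold change, amiRNA-VQ1,10 over wild type Col-0 (vertical axis), against mean CPM over 6 libraries (horizontal axis, log scale) for all tested genes in grey and the members in colour by class; 8 genes beyond ±2 are not drawn. Most members sit at the abundant end, where the spread of all genes is narrow, with LHCB1.4 at 0.40 above the other abundant members.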

How the data were processed

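Libraries of 3′ RNA-seq were made from 1 µg of total RNA with an integrity number above 8 and primers with a molecular identifier of 6 bp, per the labels' protocols. The authors deposited raw counts per gene, 1 file per library. The submitters' processing notes list TAIR10 as build and, without saying what each did, DESeq2, STAR and HISAT2 2.0.4. No source used here gives the counting program, the strand setting or the use of the identifiers, so precision covers counting and library spread only. Lines without a gene were left out of library sizes: reads outside genes (3.79% to 4.07% of a library's entries), in several genes (0.103% to 0.109%) and with several alignments (4.40% to 5.45%).

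Counts were filtered (filterByExpr, minimum count 10, minimum total 15), leaving 12701 genes, scaled by TMM and compared with edgeR 4.0.16 in R 4.3.3 (glmQLFTest, Benjamini-Hochberg, threshold 0.05). SE was obtained as log2 fold change divided by the root of F. Replicates differed by more than sampling noise (chi-square per degree of freedom 1.28 to 1.69). The fitting code was tested on simulated data whose set changes were larger than that of any member. How often changes of the members' size would be called was not tested. Log2 levels per library used a prior of 0.5 CPM. Sequences, positions and overlaps came from RefSeq TAIR10.1 by locus tag, where all 44 members matched. The files hold no coordinates, so the builds were not compared by position. For coding and transcript lengths the transcript with the shortest, then lowest, accession was used, aligned with Biopython 1.88. Members and lists were chosen with earlier results of these data known. Values per library are given for the 12 members with the smallest p, those below 0, the highest 2 and the lowest of each class and the paralog groups. Alternatives were other scalings, filters and tests (DESeq2 1.42.0, limma 3.58.1), a replicate block, organelle genes left out, paralogs summed, and each library left out.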

Additional observations from a re-analysis of the deposited data

How the results depend on the processing

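The number of members above 0 stayed within 1.5 times of 39 under every alternative run. With paralog groups summed 27 entries were above 0, out of fewer than 44, since each group counted as 1. Medians and ratios of summed levels moved by less than 1 SD between replicates under every alternative run. Leaving out 1 of 3 libraries can hardly move a ratio by that much, so this outcome says little about how steady the ratios are. For the medians the SD was that of the mean deviation per library, not of the medians. It was 0.049 to 0.078, not far from the medians themselves. With a library left out the median ranged from 0.051 to 0.108 for all members, 0.042 to 0.128 for the photosystem I antenna, 0.064 to 0.116 for the photosystem II antenna, 0.034 to 0.101 for the photosystem I subunits and 0.026 to 0.104 for the photosystem II subunits, which stood at 0.021 with library totals only. Members past the threshold numbered 1 (LHCB1.4 in each case) with no filter and with the replicate block, and 0 to 1 with a library left out. All genes past the threshold numbered 92 with no filter, 6 with 50 counts in 3 libraries, 6 by DESeq2, 8 by limma-voom, 7 at an adjusted p under 0.01 and 10 to 37 with a library left out (22 when amiRNA-VQ1,10 replicate 3 was dropped and 37 when wild type replicate 2 was). Over all tested genes, libraries with the same number showed no shared deviation (correlations -0.006, -0.023 and -0.03). With a median of 32.2 counts per library in these genes, a small shared effect could stay hidden. Whether the number pairs samples was therefore not settled. With the replicate block, used only as an alternative, LHCB1.4 had an adjusted p of 0.0385 and 16 genes passed.

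Members near 0 changed sign, none past the threshold, and the cause was not tested. With upper-quartile scaling PSAL, PSBO2 and PSBX stood at -0.004, -0.005 and -0.003. With library totals only PSAE2, PSAL, PSBO2 and PSBX stood at -0.004, -0.011, -0.01 and -0.01. With a library left out the log2 fold changes ranged from -0.298 to 0.191 for LHCB4.3, -0.001 to 0.064 for LHCB6, -0.013 to 0.199 for PSAD2, -0.075 to 0.063 for PSAE1, -0.029 to 0.081 for PSAE2, -0.041 to 0.063 for PSAL, -0.086 to 0.134 for PSBO2, -0.018 to 0.133 for PSBQ1, -0.136 to 0.045 for PSBS, -0.073 to 0.067 for PSBX and -0.182 to 0.237 for PSBY. LHCB7 and LHCB4.3 rest on 16 to 42 counts per library.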

Other observations

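Members differed widely in how steady they were between libraries of 1 genotype. The coefficient of variation of CPM, pooled over the genotypes, had a median of 5.96% and was lowest in PSBR (1.3%) and LHCB1.5 (1.61%). It was highest in PSBY (AT1G67740), a small photosystem II subunit, at 24.9%, where counting error alone gives 4.02%. PSBY had 428, 568 and 718 CPM in amiRNA-VQ1,10, against 443, 713 and 529 CPM in wild type; the highest library was replicate 3 in amiRNA-VQ1,10 and replicate 2 in wild type. PSBO2 (13.2%, counting 3.57%), LHCB1.4 (11.9%, counting 2.76%), PSAD2 (10.6%, counting 3.45%) and LHCB2.3 (10.5%, counting 2.68%) followed among members above 100 CPM. Under 100 CPM, LHCB4.3 had 24.2% (counting 18%) and LHCB7 22.5% (counting 19%).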
